A study of Homo sapiens with 12 samples.

Results

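Human NCCIT cells were profiled by polyA RNA-seq, and 9 genes that regulate or mark the trophoblast were followed in all 12 libraries. The members were chosen by name from the gene table, in which each name matched 1 of the 26641 rows. They are the transcription factors CDX2, GATA2, GATA3, TP63, GCM1 and ELF5, the keratin KRT7, the glycoprotein hormone subunit CGA and the steroid enzyme HSD3B1. NCCIT is a human embryonal carcinoma line, a tumour counterpart of early embryonic cells. In 6 lines that carried PiggyBac insertions, a doxycycline-inducible Streptococcus pyogenes dCas9 was fused either to VPR, an activation domain (CRISPRa), or to KRAB, a repression domain (CRISPRi). Both fusions were combined with 3 guide arrays. The LTR5HS Sp array places its fusion at LTR5HS, the long terminal repeats of the youngest HERVK endogenous retroviruses, and is called recruitment. The LTR5HS Sa array carries the same target with a Staphylococcus aureus scaffold, the nontarget Sp array has no target in the genome, and these lines are called control. All lines, controls included, received doxycycline for 4 days. The 3 lines of a fusion came from 1 progenitor line, and each array was studied in 1 line, in 2 biological replicates. A change with recruitment and a difference between lines can therefore not be told apart beyond what the 2 control lines of each fusion show.

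The trophoblast is the outer lineage of the embryo that builds the placenta. CDX2 acts early in its specification, GATA2 and GATA3 with TFAP2 factors maintain the lineage, TP63 and ELF5 mark its proliferating cytotrophoblast, and GCM1 drives the fusion of these cells to the syncytiotrophoblast. The syncytiotrophoblast secretes chorionic gonadotropin, of which CGA is the alpha subunit, and makes progesterone with HSD3B1. None of these genes is private to the trophoblast: CDX2 also specifies intestine, GATA2 blood, GATA3 T cells and breast epithelium, and TP63 the basal cells of skin.

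Of the 9 genes, 4 rose when dCas9-VPR was recruited, namely CDX2, GATA2, GATA3 and TP63, where 15.7% of all genes tested rose. GATA3 was also higher when dCas9-KRAB was recruited, where 0.831% of all genes tested were higher. CGA, GCM1 and ELF5 were at or under 3 counts in every library, and KRT7 and HSD3B1 were too low to be tested. The genes that rose are regulators, but they were the only members tested with dCas9-VPR, and the regulators GCM1 and ELF5 stayed at the floor. Of the members made by the hormone-producing syncytiotrophoblast, CGA stayed at the detection floor, and HSD3B1 passed it in 3 control libraries of dCas9-VPR and had 0 counts with recruitment.

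The windows from 250 bases before to 50 bases after the annotated start were read from the RefSeq promoter table (GRCh38.p14), which held a window for 8 of the 9 members. Shown are CDX2 and GATA3, which rose, and CGA and HSD3B1, which had few or no counts, to set the windows of regulators and hormone genes side by side. They are written 5′ to 3′ on the strand of the gene. Capitals mark matches on either strand to AGATAA (letters bound by GATA factors), GCCNNNGGC (bound by TFAP2 factors) and TGACGTCA (the cyclic AMP response element).
CDX2, chr13:27969266-27969565, minus strand: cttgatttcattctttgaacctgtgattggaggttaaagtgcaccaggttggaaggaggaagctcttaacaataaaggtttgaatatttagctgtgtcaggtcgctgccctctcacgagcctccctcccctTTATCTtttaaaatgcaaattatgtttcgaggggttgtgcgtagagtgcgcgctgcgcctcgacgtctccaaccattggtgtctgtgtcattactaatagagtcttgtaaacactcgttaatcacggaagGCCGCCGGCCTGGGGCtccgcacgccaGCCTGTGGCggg
GATA3, chr10:8054438-8054737, plus strand: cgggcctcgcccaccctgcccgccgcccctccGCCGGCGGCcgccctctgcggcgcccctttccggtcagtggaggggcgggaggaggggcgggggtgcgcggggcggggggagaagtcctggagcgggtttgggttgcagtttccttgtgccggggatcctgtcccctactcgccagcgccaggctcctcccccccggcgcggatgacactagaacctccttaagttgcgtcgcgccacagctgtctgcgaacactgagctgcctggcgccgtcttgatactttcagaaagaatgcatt
CGA, chr6:87095057-87095356, minus strand: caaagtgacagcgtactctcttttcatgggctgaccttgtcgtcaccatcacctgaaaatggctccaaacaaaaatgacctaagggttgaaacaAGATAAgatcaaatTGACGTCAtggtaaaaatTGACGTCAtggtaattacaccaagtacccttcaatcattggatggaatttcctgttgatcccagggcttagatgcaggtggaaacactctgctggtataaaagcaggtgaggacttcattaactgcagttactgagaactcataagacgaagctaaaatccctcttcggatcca
HSD3B1, chr1:119506953-119507252, plus strand: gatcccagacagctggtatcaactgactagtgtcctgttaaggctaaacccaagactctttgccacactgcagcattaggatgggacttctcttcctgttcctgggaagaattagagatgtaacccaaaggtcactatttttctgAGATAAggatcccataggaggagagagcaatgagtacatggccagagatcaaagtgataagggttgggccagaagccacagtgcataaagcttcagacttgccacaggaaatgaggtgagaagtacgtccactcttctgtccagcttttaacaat
The CDX2 window held 1 match to AGATAA, which starts at -119 from the annotated start, and 3 matches to GCCNNNGGC, of which 2 overlap. The CGA window held 1 match to AGATAA and 2 matches to TGACGTCA, which start at -142 and -124. The HSD3B1 window held 1 match to AGATAA, and the GATA3 window 1 match to GCCNNNGGC. Over the 35116 windows of the table, AGATAA was found in 10.3%, GCCNNNGGC in 23.2% and TGACGTCA in 1.85%. A match is a description of these letters only. The windows also differed in their CpG dinucleotides, of which the median window held 14. The window at the canonical start of GATA2 held 29, that of GATA3 29 and that of CDX2 16. TP63 held 7, CGA 6, and GCM1 and HSD3B1 1 each, so the 3 members with the highest levels had windows above the median. The ELF5 window held 2 and did not lie at its canonical start. Other windows of GATA3 held between 5 and 36, and KRT7 had no window.

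The distance of each gene to places that the guides match was measured. Guide sequences were matched exactly to hg38 next to an NGG, and 521 places held at least 3 of the 12 guides within 1200 bp. From the canonical start in GENCODE 44, GCM1 (chr6:53126961-53148841) lay 225 kb from the nearest such place and TP63 (chr3:189631389-189897276) 379 kb. GATA2 (chr3:128479427-128493201) lay 1081 kb away, GATA3 (chr10:8045378-8075198) 1221 kb and CDX2 (chr13:27960918-27969315) 3012 kb. Thus CDX2, which changed most, was the farthest of the 9, and GCM1, the closest, was not detected above 2 counts. KRT7 lay 778 kb away, HSD3B1 918 kb, CGA 1287 kb and ELF5 1464 kb. Over the 23287 genes of the table with an annotated start, the median distance was 1888 kb. The median of the members was 1081 kb, and only 1 of the 9, CDX2, lay farther than the median of all genes. Within 200 kb lay 9.91% of all genes and 0 of the 9 members, and 9 genes are too few to compare with that share. Places matched by fewer guides are not counted here, and matches with mismatches were not searched. The study mapped dCas9 binding by ChIP-seq, also at related repeats and off-target sites, and those data were not used here. The distances are therefore to matching letters and not to bound sites.

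The libraries held between 13601701 and 69797411 counts. The deepest was dCas9-KRAB nontarget Sp replicate 2, and the next held 24840708. Levels are given as CPM, which are counts scaled to the size of their library with TMM normalization, and 3 counts, used as the floor, corresponded to 0.0455 to 0.233 CPM. Replicates of a line correlated with Pearson's r of log2 CPM between 0.986 and 0.992 across genes, which are not independent replicates. Counting intervals below are 95% exact intervals and cover counting error only.

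To compare levels between genes, CPM was divided by the deposited gene length in kb. In dCas9-VPR recruitment libraries GATA2 stood highest with 13.97 ± 0.157 CPM per kb (SD, n = 2), followed by GATA3 with 8.62 ± 2.09 and CDX2 with 4.83 ± 0.402. TP63 followed with 0.404 ± 0.124 and KRT7 with 0.126 ± 0.132. In dCas9-VPR control libraries (n = 4) GATA2 had 4.13 ± 0.637 and GATA3 3.09 ± 1.02 CPM per kb, and these neighbours did not differ beyond their spread. CDX2 had 0.366 ± 0.228, KRT7 0.231 ± 0.124 and HSD3B1 0.189 ± 0.146 CPM per kb in the same libraries, and these 3 overlapped within their spread. In dCas9-KRAB control libraries (n = 4) GATA2 had 1.38 ± 0.289, GATA3 0.583 ± 0.168 and CDX2 0.221 ± 0.0652 CPM per kb. Over the 8 control libraries the mean was 2.76 CPM per kb for GATA2 and 1.84 for GATA3, below the median of 5.79 over the genes tested, and 0.293 for CDX2.

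**Figure D1:**
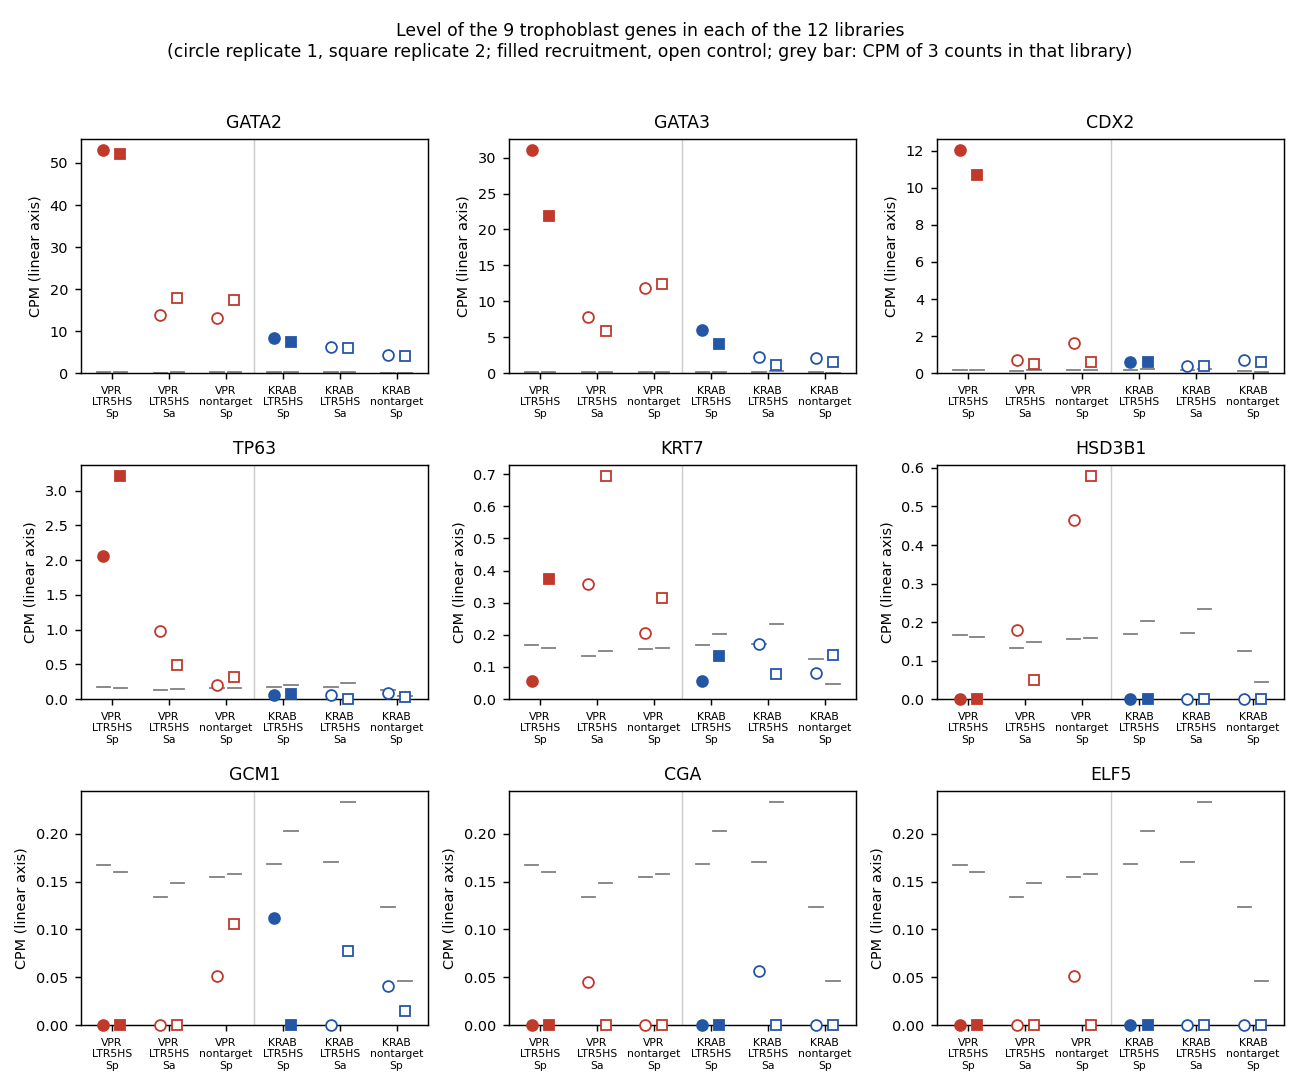
CPM of each of the 9 genes in the 12 libraries, on a linear axis with its own range in each panel. Filled symbols are recruitment, open symbols control, circles replicate 1 and squares replicate 2, and a grey bar marks 3 counts in that library. The filled dCas9-VPR symbols stand above all open ones for GATA2, GATA3, CDX2 and TP63, and GCM1, CGA and ELF5 stay under the grey bars.

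The first comparison asks which members change when the activator is recruited to LTR5HS. In dCas9-VPR lines 4 members passed the filter on low counts, and all 4 were higher with recruitment (edgeR's quasi-likelihood F-test, Benjamini-Hochberg adjusted p under 0.05). Over all genes tested, 15.7% were higher and 28.0% changed in either direction. A member that is low in control could pass the filter through the recruitment libraries alone, so the count over those tested is given as a description.

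CDX2, the homeobox factor of early trophectoderm and intestine, had 12.02 and 10.7 CPM in the recruitment libraries. It had 0.714 and 0.497 CPM with LTR5HS Sa, and 1.65 and 0.578 CPM with nontarget Sp. Both recruitment libraries stood above the 4 controls, as they did by any margin for 25.5% of genes tested with dCas9-VPR. Of the controls, nontarget Sp replicate 1 was the highest. CDX2 rose by a log2 fold change of 3.72 (standard error 0.39, 95% interval 2.84 to 4.61, adjusted p = 0.000252). Without nontarget Sp replicate 1 the log2 fold change was 4.23.

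GATA2, a zinc finger factor of trophoblast and blood progenitors, had 53.0 and 52.2 CPM with recruitment. It had 13.9 and 17.9 CPM with LTR5HS Sa, and 13.2 and 17.3 CPM with nontarget Sp. The 2 recruitment libraries were nearly equal and the control libraries of both arrays covered the same range. GATA2 rose by a log2 fold change of 1.76 (standard error 0.15, adjusted p = 0.000103).

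GATA3, its relative in the same lineage, had 31.0 and 21.9 CPM with recruitment. It had 7.81 and 5.91 CPM with LTR5HS Sa, and 11.8 and 12.4 CPM with nontarget Sp. The recruitment libraries stood above all controls, as for 25.5% of genes tested with dCas9-VPR, but the control arrays formed 2 levels. GATA3 rose by a log2 fold change of 1.48 (standard error 0.29, adjusted p = 0.00617). The log2 fold change was 1.93 against LTR5HS Sa alone and 1.13 against nontarget Sp alone. Without recruitment replicate 1 it was 1.22 and did not pass the threshold (adjusted p = 0.0704).

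TP63, the p53 family factor of basal epithelia and cytotrophoblast, had 2.06 and 3.21 CPM with recruitment. It had 0.981 and 0.497 CPM with LTR5HS Sa, and 0.206 and 0.315 CPM with nontarget Sp. All 6 libraries were low, and the recruitment libraries were the highest of them, as for 25.5% of genes tested with dCas9-VPR. TP63 rose by a log2 fold change of 2.36 (standard error 0.50, adjusted p = 0.00938). Without recruitment replicate 2 it was 1.99 and did not pass the threshold (adjusted p = 0.0960), and it was 1.804 against LTR5HS Sa alone and 3.31 against nontarget Sp alone. TP63 has starts for a full-length and a shorter form, and gene counts do not separate them.

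The members that were not tested are low in every library. HSD3B1, the steroid enzyme of the syncytiotrophoblast, had 0 counts in both dCas9-VPR recruitment libraries, 4 and 1 counts with LTR5HS Sa, and 9 and 11 counts with nontarget Sp. The mean of the controls was at least 1.94-fold above the floor of the recruitment libraries, but this rested on nontarget Sp. With LTR5HS Sa the mean was 0.114 CPM, under the mean recruitment floor of 0.164 CPM, so against that array no fall could be seen. The 20 counts of nontarget Sp against 5 of LTR5HS Sa gave a CPM ratio of 4.43 (counting interval 1.61 to 15.1), so its control arrays also differed. HSD3B1 shares much of its sequence with HSD3B2, its adrenal and gonadal counterpart, so their reads cannot be fully told apart. HSD3B2 had 2.40 ± 0.146 CPM with recruitment (n = 2) and 2.07 ± 0.876 in control (n = 4).

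KRT7, the keratin used to mark trophoblast and many simple epithelia, had 8 counts over the 2 dCas9-VPR recruitment libraries and 32 over the 4 controls, a CPM ratio of 0.552 (counting interval 0.220 to 1.22). At this depth a difference was not detectable. KRT7 overlaps KRT86 in the annotation. CGA had 2 counts in all 12 libraries together, ELF5 had 1, and GCM1 had 8 with at most 2 in a library. Pooled over the 12 libraries, the upper counting limit was 0.0267 CPM for CGA, 0.0206 CPM for ELF5 and 0.0582 CPM for GCM1. None of these 3 genes had more counts with recruitment than the floor, with either fusion.

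The second comparison asks the same for the repressor. In dCas9-KRAB lines 3 members passed the filter, 1 was higher and none was lower, against 0.831% higher, 1.94% lower and 2.77% in either direction of all genes tested. GATA3 had 5.94 and 3.99 CPM with recruitment. It had 2.27 and 1.16 CPM with LTR5HS Sa, and 2.15 and 1.58 CPM with nontarget Sp. Both recruitment libraries stood above the 4 controls, as for 11.3% of genes tested with dCas9-KRAB. The control arrays covered the same range here. GATA3 rose by a log2 fold change of 1.47 (standard error 0.29, 95% interval 0.82 to 2.12, adjusted p = 0.0259). The call was lost without recruitment replicate 1 (log2 fold change 1.15, adjusted p = 0.246), without recruitment replicate 2 (1.72, adjusted p = 0.0534) and without the deepest library, nontarget Sp replicate 2 (1.39, adjusted p = 0.0819). GATA3 was one of 23 genes higher with both fusions, 0.152% of the 15145 genes tested with both.

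GATA2 had 8.29 and 7.31 CPM with dCas9-KRAB recruitment. It had 6.26 and 5.97 CPM with LTR5HS Sa, and 4.33 and 4.16 CPM with nontarget Sp. The recruitment libraries were the highest of the 6, and the arrays did not overlap one another. The log2 fold change was 0.61 (standard error 0.23) and did not pass the threshold (adjusted p = 0.255). The libraries of recruitment were above all controls in 11.3% of genes tested.

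CDX2 had 0.616 and 0.609 CPM with dCas9-KRAB recruitment. It had 0.398 and 0.388 CPM with LTR5HS Sa, and 0.702 and 0.591 CPM with nontarget Sp. The recruitment libraries lay above both LTR5HS Sa libraries and within the range of nontarget Sp, and the log2 fold change was 0.18 with an interval from -0.74 to 1.09 (adjusted p = 0.916). A gene this low leaves little room for a measured fall. TP63 had at most 1 count in a dCas9-KRAB recruitment library and HSD3B1 had 0 counts in all 6 dCas9-KRAB libraries, so repression of these could not be seen.

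A model over the 12 libraries tested whether the change with recruitment differed between the fusions. Here 21.0% of genes passed the threshold and 11.5% did so with the greater change for dCas9-VPR, against 2 of the 4 members tested. For CDX2 the change with dCas9-VPR exceeded that with dCas9-KRAB by 3.55 on the log2 scale (standard error 0.60, adjusted p = 0.00099). For GATA2 it exceeded it by 1.14 (standard error 0.27, adjusted p = 0.00987), a call that was lost without dCas9-KRAB recruitment replicate 2 (1.05, adjusted p = 0.0543). For GATA3 the difference was 0.01 with an interval from -1.19 to 1.22 (adjusted p = 0.994), which leaves room for a difference of more than 2-fold either way. For TP63 it was 1.87 with an interval from -1.11 to 4.85 (adjusted p = 0.386), a width set by the few dCas9-KRAB counts. Counted directly, TP63 had 97 counts with dCas9-VPR recruitment and 2 with dCas9-KRAB recruitment, a CPM ratio of 43.1 (counting interval 11.6 to 361). The controls of the fusions already differed, with 42 against 5 counts and a ratio of 12.5 (4.96 to 40.5), so the levels with recruitment do not show a difference in the change.

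**Figure D2:**
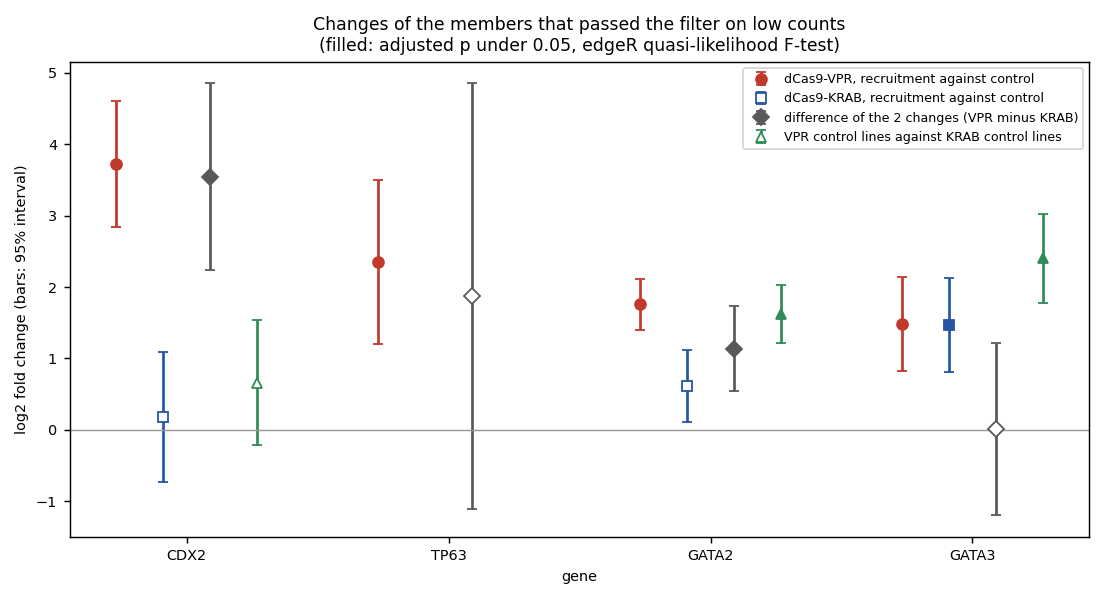
Log2 fold changes of CDX2, TP63, GATA2 and GATA3 with 95% intervals, for recruitment against control with each fusion, for the difference of both changes and for the control lines of the fusions against each other. Filled symbols have an adjusted p under 0.05. GATA3 has nearly equal changes with both fusions, 1.48 and 1.47, and CDX2 has 3.72 and 0.18.

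The pooled control was examined by comparing LTR5HS Sa with nontarget Sp within each fusion. No member passed the threshold in either fusion by edgeR, where 4.51% of genes did with dCas9-VPR and 0.567% with dCas9-KRAB. At an unadjusted p under 0.05 there were 2 members with dCas9-VPR and 1 with dCas9-KRAB. GATA3 was lower with LTR5HS Sa than with nontarget Sp in dCas9-VPR lines by a log2 fold change of -0.80 (adjusted p = 0.0847). With the replicate number as a block, the difference was -0.81 and passed the threshold (adjusted p = 0.00267). TP63 differed by 1.52 in the other direction (adjusted p = 0.185), and GATA2 by 0.54 in dCas9-KRAB lines (adjusted p = 0.436).

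Without recruitment, the members already differed between the 2 sets of lines. GATA2 had 15.6 ± 2.40 CPM in dCas9-VPR control libraries and 5.18 ± 1.09 in dCas9-KRAB control libraries (SD, n = 4 each), a log2 fold change of 1.62 (standard error 0.18, adjusted p = 3.72e-05). GATA3 had 9.48 ± 3.14 and 1.79 ± 0.516 CPM, a log2 fold change of 2.41 (standard error 0.28, adjusted p = 4.96e-05). The groups did not overlap for either gene, but the share of all genes without overlap was not counted. In this comparison 27.2% of all genes were higher in dCas9-VPR lines, 27.7% lower and 54.9% differed. CDX2 had 0.860 ± 0.535 and 0.520 ± 0.153 CPM, which did not pass the threshold (log2 fold change 0.66, adjusted p = 0.184). TP63 differed as given above, and for KRT7 32 against 15 counts gave a CPM ratio of 3.18 (counting interval 1.67 to 6.32). The mean of HSD3B1 in dCas9-VPR controls was at least 2.22-fold above the floor of the dCas9-KRAB controls. This again rested on nontarget Sp, since LTR5HS Sa had a mean of 0.114 CPM against a mean floor of 0.143 CPM. HSD3B1 and HSD3B2 were at 0 counts in every dCas9-KRAB library. Fusion and line cannot be told apart here.

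Markers of several cell types also differed between these lines. Over all genes tested, 27.2% were higher in dCas9-VPR controls, 27.7% lower and 54.9% differed, and the counts below are read against these shares. All 10 listed markers of embryonal carcinoma, the labelled cell type, were lower in dCas9-VPR than in dCas9-KRAB controls, with a median log2 fold change of -2.26 against -0.00878 over all genes. Their summed level ranged from 1105 to 1743 CPM in the former and from 4160 to 4951 CPM in the latter. NANOG, a core pluripotency factor, had 2.39 ± 1.85 against 150.1 ± 32.4 CPM, and POU5F1 had 14.2 ± 1.19 against 69.6 ± 18.6 CPM (n = 4 each), so a defining marker was nearly absent from the dCas9-VPR lines. The 4 tested keratins of the epithelial list were all higher, with summed levels of 3029 to 4992 against 808 to 1200 CPM. Of 18 tested trophoblast transcription factors besides the members, 10 were higher in dCas9-VPR controls and 1 lower. HAND1, a factor of trophoblast and mesoderm, had 203.1 ± 66.6 against 9.29 ± 5.57 CPM, and DLX3, a homeobox factor of placenta and skin, 17.8 ± 13.6 against 0.656 ± 0.223 CPM. The 1 that was lower was TFAP2C, a TFAP2 factor, with 27.3 ± 3.55 against 66.2 ± 6.43 CPM (log2 fold change -1.26). Of 5 tested amnion genes 2 were higher, and the summed level ranged from 37.2 to 175 against 6.52 to 12.9 CPM. The list of mesoderm and endoderm had 4 of 5 higher at summed levels of 13.7 to 16.2 against 5.23 to 6.52 CPM. Of 7 tested extravillous trophoblast genes 2 were higher and 2 lower, with a median log2 fold change of -0.77. Of 7 cytotrophoblast genes 6 were higher and 1 lower, of 8 syncytiotrophoblast hormones and enzymes 5 were higher and 1 lower, and of 6 fusion proteins and receptors 1 was higher and 1 lower. The part of these markers in the members' levels was not tested. In bulk RNA, more cells of a kind and more RNA per cell cannot be told apart.

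**Figure D3:**
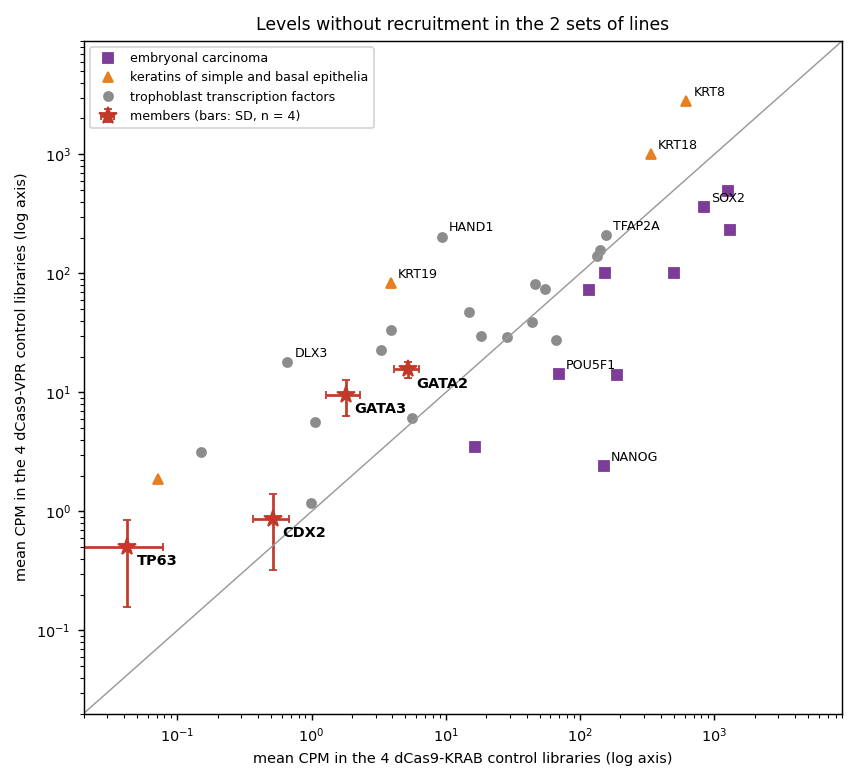
Mean CPM in the 4 dCas9-VPR control libraries against that in the 4 dCas9-KRAB control libraries, both on log axes, with the line of equal levels. Stars are members with SD bars cut at the axis, squares embryonal carcinoma markers, triangles keratins and circles other trophoblast transcription factors. All 10 squares lie below the line and the keratins above it, and GATA2 and GATA3 lie above it.

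Within dCas9-VPR lines the embryonal carcinoma markers changed less with recruitment. Of 10 tested, 2 were lower and none higher, with summed levels of 1046 to 1079 CPM with recruitment. SOX2 fell by a log2 fold change of -1.24 (152.9 ± 30.1 against 360.3 ± 91.3 CPM), and DNMT3B by -0.62. With dCas9-KRAB 0 of 10 changed. Over all genes tested, 12.3% were lower with dCas9-VPR and 2.77% changed with dCas9-KRAB.

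The wider programme was read from lists of known genes around each member, of which each list is described by its counts and its median. The median over all genes tested was -0.02 with dCas9-VPR and 0.000596 with dCas9-KRAB. Over all genes tested with dCas9-VPR, 15.7% were higher, 12.3% lower and 28.0% changed, and the counts of each list are read against these shares. With dCas9-KRAB 2.77% of all genes tested changed, so 0 calls in lists this short lie near that share. A listed gene that is low in control can pass the filter on low counts through the recruitment libraries alone, so counts and medians of the genes tested are descriptions. Of 22 other trophoblast transcription factors, 19 were tested with dCas9-VPR, 5 rose and 5 fell (15.7% and 12.3% over all genes), and the median log2 fold change was -0.01. EOMES, a T-box factor of trophoblast stem cells and mesoderm, rose from 0.212 ± 0.0726 to 4.25 ± 1.32 CPM, a log2 fold change of 4.29 (adjusted p = 6.22e-05). TBX3 rose by 2.38 and MSX2 by 2.34, reaching 172.6 ± 7.75 and 151.4 ± 9.99 CPM. ELF3, an epithelial ETS factor related to ELF5, fell by 1.47 on the log2 scale (adjusted p = 0.0413).

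With dCas9-KRAB, 1 of 18 tested trophoblast factors changed, which was TFAP2A. It is named here after its values were seen. TFAP2A had 325.3 ± 26.3 CPM with recruitment and 155.3 ± 28.2 in control, a log2 fold change of 1.07 (adjusted p = 0.00406). With dCas9-VPR its log2 fold change was -0.97 and did not pass the threshold (adjusted p = 0.0956), and the difference between the fusions was -2.04 (adjusted p = 0.00558).

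Around CGA and HSD3B1, 33 hormones and enzymes of the syncytiotrophoblast were listed, of which 9 were tested with dCas9-VPR, 4 rose and 2 fell (15.7% and 12.3% over all genes), with a median of 0.58. Of the 33, 13 had at most 3 counts in every library. CGB7, one of the beta subunits that pair with CGA in chorionic gonadotropin, rose by 2.57 on the log2 scale, from 1.88 ± 1.60 to 11.02 ± 3.38 CPM (adjusted p = 0.0150). The copies of this subunit are nearly identical, so its counts are uncertain. SDC1, a syndecan of the syncytial surface, rose by 2.63 from 10.1 ± 4.02 to 62.3 ± 9.42 CPM. PAPPA, a protease of the placenta, rose by 2.62, and CYP19A1, the aromatase that makes oestrogens, by 2.12, to 2.30 ± 0.915 and 1.26 ± 0.499 CPM. Their control levels were 0.362 ± 0.250 and 0.285 ± 0.177 CPM, so both were among the genes that are low in control. With dCas9-KRAB 0 of 6 tested changed. The counts of CGB7 thus rose where the alpha subunit CGA stayed at 0 counts in both recruitment libraries. The beta subunit genes CGB1, CGB2 and CGB3 had at most 1 count in these libraries.

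Around GCM1, 8 proteins of cell fusion and their receptors were listed. With dCas9-VPR 1 of 6 tested rose, near the share of 15.7% over all genes, and 3 fell (12.3% over all genes), with a median of -0.46. ERVV-2, a retroviral envelope gene, rose by 1.24 with dCas9-VPR (adjusted p = 0.00442) and fell by 1.49 with dCas9-KRAB (adjusted p = 0.0335), and it was the only one of 7 to change with dCas9-KRAB. It has a close copy beside it, ERVV-1, so reads may be split. MFSD2A, the receptor of syncytin-2, fell by 1.96, ERVMER34-1 by 1.42 and SLC1A4, an amino acid transporter and retroviral receptor, by 0.59.

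Around ELF5 and TP63, 10 cytotrophoblast surface and imprinted genes were listed, of which 7 were tested with dCas9-VPR. None rose and 5 fell, with a median of -1.07, while 12.3% of all genes fell. EPCAM, an adhesion molecule, fell by 1.22 on the log2 scale, PEG10, an imprinted retrotransposon-derived gene, by 1.11, the peptidase ENPEP by 1.07 and the growth factor receptor EGFR by 0.76. Their summed level was 244 to 280 CPM with recruitment and 406 to 523 CPM in control. With dCas9-KRAB 0 of 7 changed. CDH1 (-0.22, adjusted p = 0.711) and LRP2 (-1.33, adjusted p = 0.113) did not pass the threshold.

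Of 11 genes of extravillous trophoblast, the invading cells of the placenta, 8 were tested with dCas9-VPR, 2 rose and 2 fell, where 28.0% of all genes changed. MMP2, a matrix protease, rose by 1.39 and the integrin ITGA5 by 0.62, while TAC3, a tachykinin, fell by 2.53 and AOC1, an amine oxidase, by 2.05. With dCas9-KRAB 0 of 7 changed. Around KRT7, 8 keratins were listed and 4 were tested with dCas9-VPR. KRT8, a keratin of simple epithelia, rose by 0.96 to 5397 ± 912 CPM, and KRT19 fell by 1.20 to 35.7 ± 3.60 CPM, and with dCas9-KRAB 0 of 3 changed.

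Of 16 relatives of the members, 12 were tested with dCas9-VPR. GATA6, a GATA factor of endoderm and heart, rose by 1.29 to 3.49 ± 0.101 CPM, while GATA5 fell by 1.93 and HSD3B7, an enzyme of bile acid synthesis, by 1.20. Among the GATA family, then, GATA2, GATA3 and GATA6 rose and GATA5 fell with dCas9-VPR. With dCas9-KRAB 0 of 7 relatives changed. Of the lists for other cell types, 0 of 5 tested amnion genes changed with dCas9-VPR and 1 of 6 mesoderm and endoderm genes rose (GATA6). With dCas9-KRAB 0 of 5 and 0 of 4 changed. The part of these cell types in the members' changes was not tested.

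**Figure D4:**
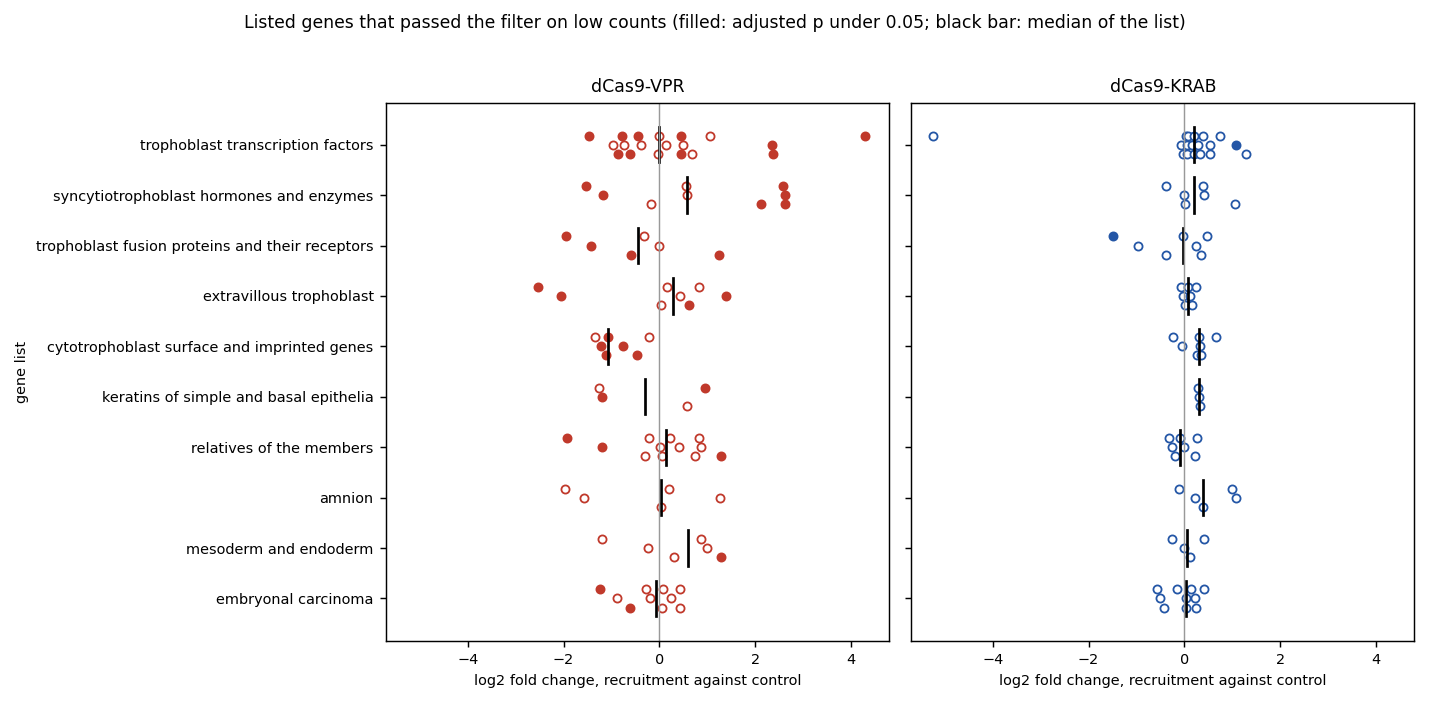
Log2 fold change of each listed gene that passed the filter on low counts, recruitment against control, on 1 scale for both fusions. Points are genes, filled at an adjusted p under 0.05, and black bars are the medians of the lists. With dCas9-VPR most lists hold filled points on both sides of 0, and with dCas9-KRAB 2 points are filled, TFAP2A at 1.07 and ERVV-2 at -1.49.

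The genes with the most similar pattern were found by Pearson's r of log2 CPM over the 12 libraries, given as a description without a test, since the libraries share lines and fusions. CDX2 was most like HOXA3 (0.983), HOXA10-AS (0.979) and CST5 (0.978). GATA2 was most like HHIPL2 (0.990), NAB2 (0.988) and MAGED1 (0.987), and GATA3 like PPIC (0.982), SDC2 (0.980) and CREB3L2 (0.974). TP63 was most like DIO3 (0.979), SHC4 (0.978) and PEX26 (0.978). No member was among the 3 genes most like another member.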

How the data were processed

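RNA from 6 NCCIT lines, in 2 replicates each, had been sequenced as polyA RNA with paired reads. Per the labels, the authors used CASAVA 1.8, cutadapt 1.8.1, HISAT2 2.1.0 and featureCounts 1.4.6-p2 with the hg38 build. They deposited raw counts per gene, without normalization, and the gene length in bp. The annotation and the strand setting of the counting are not given in the sources used here, and GATA2 and GATA3 overlap the antisense genes GATA2-AS1 and GATA3-AS1, whose reads cannot be told apart without strand.

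The tests used edgeR 4.0.16 under R 4.3.3 (filterByExpr, TMM, quasi-likelihood F-test) and covered all genes, with Benjamini-Hochberg adjustment and a threshold of 0.05. Recruitment (2 libraries) was compared with control (4 libraries) within each fusion, and the interaction was fitted over 12 libraries. p-values measure the spread between replicates and, in control, also between the LTR5HS Sa and nontarget Sp lines pooled there. Library totals and the floor of 3 counts are given with the results. Simulated data with known changes were tested beforehand. With dCas9-VPR, 61 of 100 genes changed by a log2 fold of 1 and 92 of 100 changed by 2 were recovered, with 12 of 165 calls false. With dCas9-KRAB these were 66, 91 and 6 of 163.

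Differences between replicates 1 and 2 correlated between arrays (Pearson's r 0.224 to 0.315 for dCas9-VPR and 0.181 to 0.375 for dCas9-KRAB, over 16673 genes). The labels do not say what equal replicate numbers share. The main tests did not pair them, and a block on the replicate number was run as an alternative.

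The 9 members are always named. From each other list, up to 4 genes past the threshold are named by the largest change, and for each tested member the 3 most similar genes (prior count 2). The list of neural genes is not reported here. Members and lists were chosen with earlier results of these data known. Alternatives were DESeq2 1.42.0 and its size factors, other filters, the replicate block, other control groups, 1 fit of 12 libraries, a threshold of 0.01 and leaving out each library. The alternatives for LTR5HS Sa against nontarget Sp were chosen after seeing the data. T and CGB were the table's names for TBXT and CGB3. A start was found for 87.4% of the table's names. Guide sequences came from the study's list, and NumPy and matplotlib were used for matching and figures.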

Additional observations from a re-analysis of the deposited data

Results flagged for a closer look

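The change with recruitment differed between the fusions for CDX2 and GATA2 by a test of the interaction. CDX2 changed by 3.55 more on the log2 scale with dCas9-VPR than with dCas9-KRAB (edgeR, adjusted p = 0.00099), with dCas9-VPR recruitment higher in 2 of 2 libraries. GATA2 changed by 1.14 more (adjusted p = 0.00987). GATA2 was already higher in dCas9-VPR than in dCas9-KRAB controls (log2 fold change 1.62), which did not pass the threshold for CDX2 (0.66). In 10 checks of groups of 4 control libraries no sample stood apart from the other 3 by Dixon's test.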

How the results depend on the processing

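With dCas9-VPR, CDX2 and GATA2 passed the threshold in 15 of 15 alternatives, with log2 fold changes of 3.35 to 4.23 and 1.68 to 1.83. GATA3 passed in 14 of 15 (1.13 to 1.93) and TP63 in 13 of 14 (1.804 to 3.31), and with dCas9-KRAB GATA3 passed in 12 of 15 (1.15 to 1.72). The exceptions leave out 1 library. Leaving out 1 library at a time gave 2299 to 4626 genes and 3 to 4 members with dCas9-VPR, 214 to 441 genes and 0 to 1 members with dCas9-KRAB, and 2393 to 3549 genes and 1 to 2 members for the interaction. For the control lines it gave 7343 to 8749 genes and 2 members each time. The lowest dCas9-VPR count, 2299, was without recruitment replicate 2, and 2312 genes were called without replicate 1. With dCas9-KRAB the counts were 234 without recruitment replicate 1, 214 without replicate 2 and 285 without nontarget Sp replicate 2, against 430 in all.

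At an adjusted p under 0.01, 2517 genes passed with dCas9-VPR against 4548, and 236 genes and 0 members with dCas9-KRAB. DESeq2's Wald test called 716 genes with dCas9-KRAB. With at least 10 counts in every library 1 member passed in the interaction, since CDX2 was then not tested. With nontarget Sp alone as control, the log2 fold change of CDX2 with dCas9-KRAB was -0.0515 in place of 0.18, neither past the threshold, and the cause was not tested. With the replicate block, LTR5HS Sa against nontarget Sp in dCas9-VPR lines gave 1 member, GATA3, in place of 0. The block changed no other call of a member.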
